A study of Mus musculus with 30 samples.

Results

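Abcb10-null murine erythroleukemia (MEL) cells were compared between day 2 and day 5 of DMSO treatment, the later of the intervals sampled, over all genes. The comparison took the 5 libraries labelled as knockout at day 5 and the 5 labelled as knockout at day 2, which are 10 of the 30 libraries of the study. Of the 54532 genes in the count table, 12797 had enough reads in these 10 libraries to be tested.

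MEL cells are a transformed mouse line of erythroid precursors that makes hemoglobin when DMSO is added to the medium. RNA of WT cells and of Abcb10-null cells was sequenced at days 0, 2 and 5, with 5 libraries labelled as biological replicates for each genotype and day. Both groups compared here carried the same *Abcb10* knockout and the same 1.5% DMSO, and they differed in the number of days in DMSO. The knockout cells were derived from the DS19 subline with a CRISPR/Cas9 lentivirus and were grown from single cells, so the values describe 1 clone, and the sources used here do not say whether its replicates were separate inductions. If they were not, the p-values measure only the spread between these libraries.

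Abcb10 is a transporter of the mitochondrial inner membrane that developing red cells need to make heme. Terminal erythroid differentiation couples heme and globin synthesis to exit from the cell cycle, loss of ribosome production and clearance of mitochondria. When heme or amino acids are short, kinases of the initiation factor eIF2 slow translation, and the transcription factor ATF4 turns on genes of amino acid uptake and synthesis. The comparison asks which of these programs moved in the null cells after day 2, and where the change differed from that of WT cells.

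*Abcb10* transcripts (chromosome 8, 123952459 to 123983122 on GRCm38) were present in every library. In units of counts per 1000000 counts (CPM) after TMM scaling over all 30 libraries, the 5 day 2 null libraries held 162, 166, 312, 189 and 184, and the day 5 libraries held 233, 237, 232, 181 and 177. WT cells ranged from 475 to 661 CPM at day 2 and from 1152 to 1264 CPM at day 5. A count over the whole gene does not show a small change at the target site, so these values check only that each null library lay below each WT library of its day. Between days the null level did not pass the test (log2 change 0.07, SE 0.17, edgeR adjusted p = 0.803), nor did *Actb*, a common reference gene (-0.36, edgeR adjusted p = 0.107).

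The labelled cell type was checked against its markers. All 12 genes of a list of MEL cell and erythroblast markers, among them *Gata1*, *Klf1*, *Tal1*, *Epor* and the globins, were over the floor of 3 counts, and their summed level was 2079 to 3143 CPM at day 2 and 5269 to 6866 CPM at day 5. Much of the rise in the sum came from *Alas2*. Of the 12 genes, 6 rose and 1, *Gata1*, fell, with a median log2 change of 0.32, beside 14.4% and 16.6% of all genes tested. Myeloid markers summed to 7.08 to 23.4 CPM at day 2 and 7.58 to 17.4 CPM at day 5. Of the 15 myeloid markers, 6 were at or under the floor in every day 2 library and 5 in every day 5 library. *Mpo*, *Elane* and *S100a8* were at or under it at day 2 but over it in at least 1 day 5 library. *Ms4a3* and *Cebpe* went the other way, over it in at least 1 day 2 library but in no day 5 library. Mast cell markers summed to 2.13 to 5.15 CPM and 1.39 to 5.61 CPM, and lymphoid markers to 7.33 to 22.8 CPM and 12.9 to 21.7 CPM. Megakaryocyte markers summed to 166 to 261 CPM at day 2 and 277 to 612 CPM at day 5. In that list *Itga2b*, an integrin shared by megakaryocytes and early erythroid cells, rose (log2 change 1.43, SE 0.22, edgeR adjusted p = 0.000368), and *Gp5*, a platelet glycoprotein, fell (log2 change -2.40, edgeR adjusted p = 0.00123). In bulk RNA, fewer cells of a type and less RNA per cell cannot be told apart.

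Library totals were 17301441 to 19616273 counts at day 2 and 9906783 to 18107934 counts at day 5, and the days differed in total (exact permutation test, two-sided, p = 0.0159, where the smallest p that 5 against 5 allow is 0.00794). Day 5 replicate 4 had the fewest counts and the most genes with a count, 36511 against 17774 to 27675 in the other day 5 libraries, and olfactory and vomeronasal receptor genes held 790 CPM, before TMM scaling, against 19.1 to 149 in the others of that day. Day 5 replicate 5 had the next most genes with a count, 27675. Day 2 replicate 2 had 24091 genes with a count against 17472 to 22041 in the other day 2 libraries, and histone genes held 2.51% of its counts against 4.02% to 5.16% in the others. Whether these differences between libraries had a part in any result was not tested.

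Day 5 differed from day 2 at 3968 of the 12797 genes tested, or 31.0% (edgeR, Benjamini-Hochberg adjusted p under 0.05). Transcripts of 1844 genes rose (14.4%) and those of 2124 fell (16.6%). Counts of members in the gene lists below are to be read beside these shares. A change of more than 1 on the log2 scale was reached by 401 genes that rose (3.13%) and 559 that fell (4.37%), and the median over all genes tested was 0.01. The 5 libraries of one day lay wholly above or below the 5 of the other at 2833 genes (22.1%), 1390 of them higher at day 5 (10.9%) and 1443 lower (11.3%). Of all calls, 2693 (67.9%) were made in every fit of the 10 with a single library removed. Without day 5 replicates 4 and 5, 1130 genes were higher and 1400 lower, and 2416 of the calls were kept in the same direction.

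**Figure D1:**
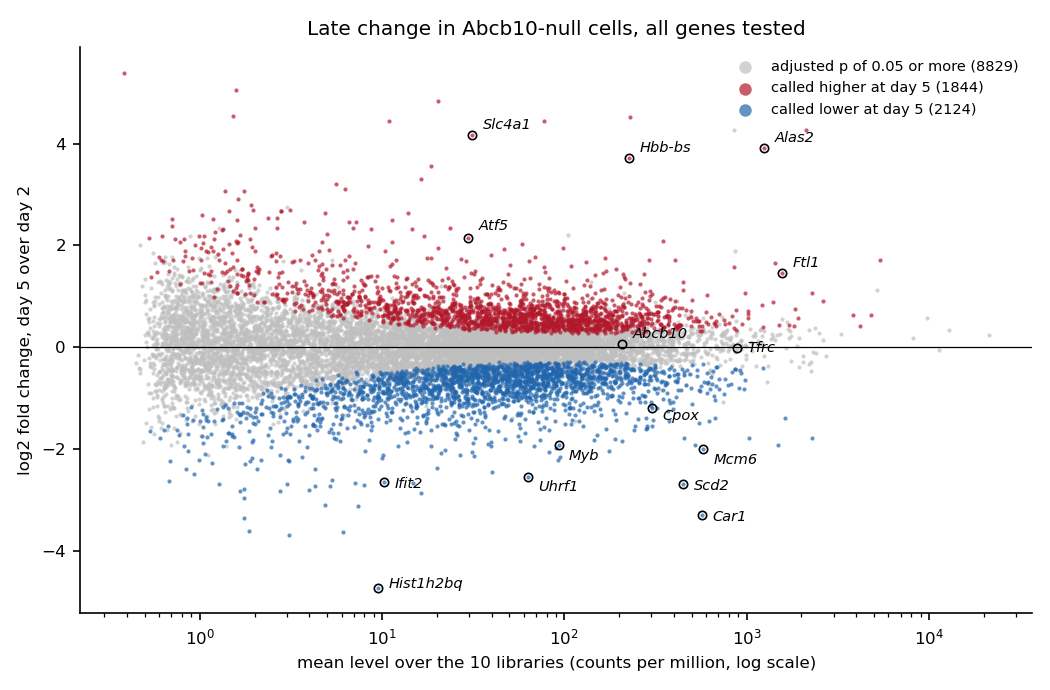
Log2 change from day 2 to day 5 in Abcb10-null cells (vertical axis) against the mean level over the 10 libraries in CPM (horizontal axis, log scale) for each of the 12797 genes tested, with the 1844 genes called higher in red, the 2124 called lower in blue and the others in grey. Changes ran from -4.72 (*Hist1h2bq*) to 5.39, and called genes were found at low and at high levels.

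Globin transcripts rose strongly although the kit depleted globin RNA before sequencing, which leaves only a remainder to count. All 4 globin genes tested rose, with a median log2 change of 2.95. *Hbb-bs*, an adult beta chain, held 26.2, 25.9, 58.2, 31.3 and 18.9 CPM at day 2 and 633, 318, 268, 486 and 398 CPM at day 5. Its lowest day 5 library lay above its highest day 2 library (log2 change 3.71, SE 0.31, edgeR adjusted p = 1.12e-05). *Hba-a1*, an alpha chain whose near-identical copy makes its own count uncertain, rose from 2.87 ± 0.946 to 34.2 ± 16.4 CPM (SD, n = 5), a log2 change of 3.57. *Hbb-bt*, the other adult beta chain, rose from 7.86 ± 2.66 to 39.6 ± 20.2 CPM (log2 change 2.33, edgeR adjusted p = 0.000198). Globin genes together held 0.00471% of counts at day 2 and 0.0493% at day 5 in null cells, and 0.0218% and 0.259% in WT cells. The rise in null cells started from and ended at a lower level than in WT cells, and the size of the log2 change was not distinguished between genotypes for *Hbb-bs* (null minus WT -0.21, edgeR adjusted p = 0.779).

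Heme synthesis did not move as one pathway in null cells. Of 16 genes for enzymes and their mitochondrial partners, 3 rose and 3 fell, with a median log2 change of 0.11. Over all genes tested in null cells 14.4% rose and 16.6% fell. In WT cells 9 of the 16 rose and 0 fell, with a median of 0.48, where 2217 of 13025 genes tested rose (17%) and 2134 fell (16.4%). *Alas2*, the first and rate-limiting enzyme of the erythroid pathway, held 235, 45.0, 174, 212 and 122 CPM at day 2 and 3159, 1995, 1979, 2434 and 2187 CPM at day 5. Every day 5 library was far above every day 2 library (log2 change 3.90, SE 0.36, edgeR adjusted p = 2.03e-05). *Fech*, which inserts iron into the porphyrin ring, rose from 151, 152, 184, 161 and 180 CPM to 379, 362, 299, 252 and 208 CPM, again without overlap (log2 change 0.86, SE 0.15, edgeR adjusted p = 0.00112).

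Of the 9 enzymes of the pathway, 3 rose and 2 fell. *Cpox*, which makes protoporphyrinogen in the intermembrane space, held 425, 493, 280, 387 and 515 CPM at day 2 and 185, 268, 225, 124 and 119 CPM at day 5. All 5 day 5 libraries were below all 5 day 2 libraries (log2 change -1.19, SE 0.23, edgeR adjusted p = 0.00165). *Alad*, the cytosolic enzyme that joins a pair of ALA molecules, fell from 349 ± 128 to 183 ± 30.8 CPM, also without overlap (log2 change -0.93, edgeR adjusted p = 0.00473). *Slc25a38*, a mitochondrial glycine carrier, fell by 0.87 on the log2 scale, although its groups overlapped and the call was lost without day 5 replicates 4 and 5. *Ppox*, which follows *Cpox*, rose by 0.75, with overlapping groups and a call in 5 of 10 fits with a single library removed. *Urod* (0.14), *Uros* (0.16) and the mitochondrial iron carrier *Slc25a37* (0.52, edgeR adjusted p = 0.0764) did not pass the test.

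The difference of the late change between genotypes was tested in 1 model over the 20 day 2 and day 5 libraries of both genotypes. Across 13956 genes it was called at 657 (4.71%), with 247 changing more positively in null cells (1.77%) and 410 more negatively (2.94%). With a single library removed these counts ran from 102 (without WT day 5 replicate 4) to 765 and from 171 (without null day 2 replicate 3) to 587, the upper value of each being that without WT day 5 replicate 5. In that fit, and over every gene of at least 1 count (424 and 329), more genes changed positively than negatively. Within heme synthesis 5 of 16 genes were among the 410 and 0 among the 247. They include *Cpox* (null minus WT -1.43, edgeR adjusted p = 0.0286), *Alad* (-1.22, edgeR adjusted p = 0.0134), *Urod* (-0.68, edgeR adjusted p = 0.0298) and *Abcb10* itself (-1.05, edgeR adjusted p = 0.0111). WT day 5 replicate 5 was unlike its group, with 236 CPM of *Cpox* against 661 to 772 in the other 4 WT day 5 libraries, while its *Abcb10* level of 1264 CPM was that of a WT library. Without it the difference was -1.59 for *Cpox* (edgeR adjusted p = 0.00235) and -1.21 for *Alad* (edgeR adjusted p = 0.0115).

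The promoters of *Alas2* and *Cpox* are shown because both genes are expressed at high levels in erythroid cells and moved in opposite directions here. They are the 250 bases before the RefSeq transcription start on GRCm38.p6, *Alas2* at chrX:150547167-150547416 and *Cpox* at chr16:58669958-58670207, both on the plus strand. Capitals mark a GATA motif, AGATAA or TGATAA on either strand, the letters that the erythroid factor GATA1 binds.
Alas2: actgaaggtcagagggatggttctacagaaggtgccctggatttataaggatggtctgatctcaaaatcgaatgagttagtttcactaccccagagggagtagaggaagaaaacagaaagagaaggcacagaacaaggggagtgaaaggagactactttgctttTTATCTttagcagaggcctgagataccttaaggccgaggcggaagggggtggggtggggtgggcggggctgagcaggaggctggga
Cpox: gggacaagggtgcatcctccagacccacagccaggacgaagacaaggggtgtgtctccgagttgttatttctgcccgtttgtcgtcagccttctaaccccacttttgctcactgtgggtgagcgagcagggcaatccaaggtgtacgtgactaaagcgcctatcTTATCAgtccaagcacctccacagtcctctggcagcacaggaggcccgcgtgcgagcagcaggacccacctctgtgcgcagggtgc
Each promoter held 1 match, and both matches began 86 bases before the start site. The motif was found in 2 of 12 heme synthesis promoters and 12 of 36 promoters of red cell membrane and cytosol genes (33.3%), against 776 of the 8593 promoters of all protein-coding genes tested that have an entry (9.03%). The share was 6.79% for protein-coding genes called higher and 9.38% for those called lower. It was 19.7% (13 of 66) for nuclear-encoded respiratory chain genes, so a high share was not particular to the red cell list. A match is a description of the letters and not evidence of binding.

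**Figure D2:**
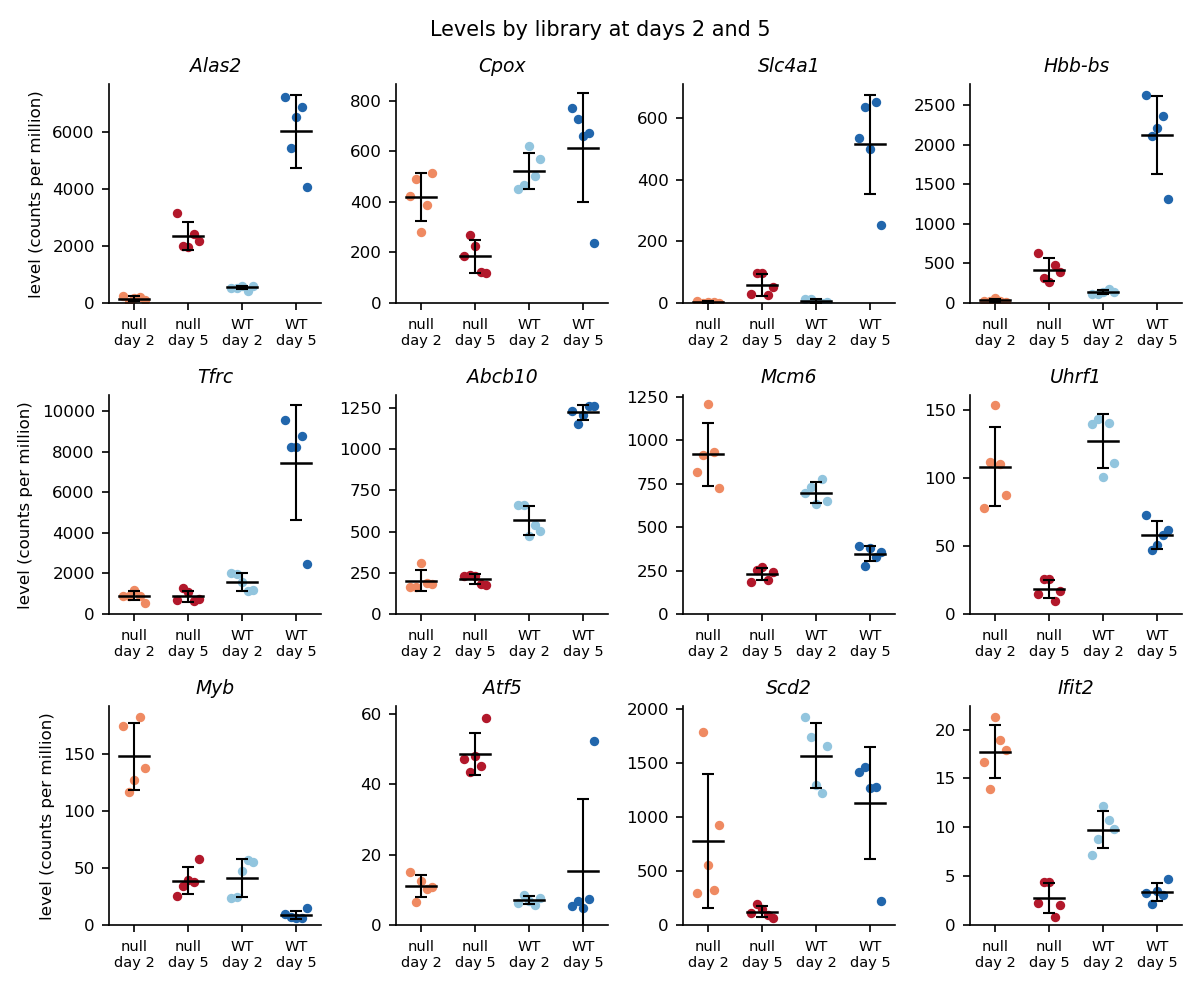
Level in CPM of 12 genes in each library (points) at days 2 and 5, in Abcb10-null cells (red shades) and WT cells (blue shades), with the mean and SD of each group of 5 (bars and whiskers, an SD that ran below 0 being cut off at 0). In null cells *Alas2*, *Slc4a1*, *Hbb-bs* and *Atf5* were higher in every day 5 library, *Cpox*, *Mcm6*, *Uhrf1*, *Myb*, *Scd2* and *Ifit2* were lower, and *Tfrc* and *Abcb10* overlapped between days, while WT day 5 replicate 5 stood away from its group in *Cpox*, *Tfrc*, *Atf5* and *Scd2*.

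Genes of the red cell membrane and cytosol moved upward more often than down. Of 47 tested, 11 rose and 4 fell, with a median of 0.20, beside 14.4% and 16.6% of all genes tested. Among the rises were 4 of 14 skeleton genes and 6 of 21 membrane proteins. The 4 falls became 2 without any 1 of day 2 replicates 1, 4 and 5 or day 5 replicates 1, 4 and 5. In WT cells 25 of the 47 rose and 4 fell, with a median of 0.51. The difference between genotypes was called at 8 genes, all more negative in null cells. In null cells *Slc4a1*, the band 3 anion exchanger of the mature red cell, held 6.33, 0.446, 4.93, 4.44 and 0.466 CPM at day 2 and 28.04, 96.5, 96.0, 25.8 and 50.6 CPM at day 5. The groups did not overlap (log2 change 4.17, SE 0.63, edgeR adjusted p = 0.000352). *Epb42*, which anchors band 3 to the skeleton, rose from 27.4 ± 7.52 to 60.1 ± 17.9 CPM. *Car1*, the carbonic anhydrase of less mature erythroid cells, moved the other way, from 949, 1304, 574, 1019 and 1294 CPM to 71.9, 122, 142, 90.7 and 99.5 CPM (log2 change -3.29, SE 0.24, edgeR adjusted p = 8.37e-06).

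Of 33 genes of iron and heme handling, 8 rose and 5 fell, with a median of 0.11, beside 14.4% and 16.6% of all genes tested. The falls were 3 without any 1 of day 2 replicates 1 and 4 and day 5 replicates 1 and 5. *Ftl1*, the ferritin light chain that stores iron, held 829, 696, 951, 953 and 751 CPM at day 2 and 2232, 1850, 1794, 2253 and 3373 CPM at day 5 without overlap (log2 change 1.46, SE 0.18, edgeR adjusted p = 9.57e-05), and 26.5% of its exon bases are covered by another gene on the opposite strand. *Hmox1*, which breaks heme down, rose from 36.3, 12.5, 31.0, 41.4 and 13.5 CPM to 55.1, 71.7, 58.1, 51.8 and 89.3 CPM (log2 change 1.28, SE 0.30, edgeR adjusted p = 0.00573). *Steap3*, the endosomal ferrireductase of the transferrin cycle, fell by 1.09 on the log2 scale, and *Fdxr*, of iron-sulfur assembly, fell by 0.75.

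*Tfrc*, the transferrin receptor, was among the named genes with the most negative differences between genotypes. In null cells it held 899, 910, 1194, 892 and 561 CPM at day 2 and 690, 1257, 1086, 628 and 764 CPM at day 5, and the days overlapped (log2 change -0.01, SE 0.22, edgeR adjusted p = 0.973). In WT cells the mean went from 1578 to 7450 CPM. The difference of the late change was -2.26 (edgeR adjusted p = 0.00457). WT day 5 replicate 5 held 2485 CPM against 8212 to 9534 in the other 4, and without it the difference was -2.43 (edgeR adjusted p = 0.00013).

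Among 23 erythroid transcription factors and cofactors, 5 rose and 6 fell, beside 14.4% and 16.6% of all genes tested. *Gata1*, the central activator of erythroid genes, held 409, 264, 304, 416 and 344 CPM at day 2 and 207, 242, 252, 191 and 160 CPM at day 5. The days did not overlap (log2 change -0.72, SE 0.15, edgeR adjusted p = 0.00325), whereas the WT change of 0.19 did not pass the test and the difference did (-0.91, edgeR adjusted p = 0.0102). *Bcl11a*, a repressor of embryonic globin, fell from 25.4 ± 3.60 to 9.78 ± 3.03 CPM, and *Ikzf1* fell by 0.73. *Foxo3*, a late activator of erythroid maturation and antioxidant genes, rose from 99.7 ± 11.7 to 218 ± 38.6 CPM without overlap (log2 change 1.13, edgeR adjusted p = 8.36e-05), and *Mxi1*, an antagonist of Myc, rose by 0.64. The count of falls ranged from 3 to 7 when 1 library was left out, and was 3 without any 1 of day 2 replicates 1 and 4 and day 5 replicates 4 and 5. In WT cells 9 of the 23 rose and 2 fell. The difference between genotypes was called at 6 of the 23, all more negative in null cells.

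Of 19 genes of progenitor and leukemia cells, 4 rose and 2 fell, and the falls were *Myb* and *Myc*. *Myb*, which holds erythroid cells in the cycling progenitor state, held 175, 117, 127, 182 and 138 CPM at day 2 and 25.7, 33.8, 39.6, 37.3 and 57.7 CPM at day 5 (log2 change -1.93, SE 0.20, edgeR adjusted p = 3.38e-05). *Myc* fell from 58.6 ± 7.88 to 28.8 ± 2.16 CPM (log2 change -1.03, edgeR adjusted p = 8.23e-05). Neither gene's days overlapped. *Junb*, an immediate early factor, rose from 73.4 ± 8.85 to 133 ± 21.1 CPM.

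DNA replication genes fell almost without exception. Of 53 genes for origin licensing, the replication fork and nucleotide supply, 50 fell and 0 rose, with a median of -0.97, and all 10 nucleotide supply genes fell. At 45 of the 53 each day 5 library lay below each day 2 library. *Mcm6*, a subunit of the replicative helicase, held 816, 915, 1208, 933 and 727 CPM at day 2 and 187, 253, 270, 199 and 242 CPM at day 5 (log2 change -2.001, SE 0.16, edgeR adjusted p = 9e-06). *Uhrf1*, which carries DNA methylation through replication, fell from 77.9, 112, 153, 110 and 87.7 CPM to 14.5, 25.4, 25.5, 9.86 and 16.9 CPM (log2 change -2.55, SE 0.25, edgeR adjusted p = 2.84e-05). *Tk1*, thymidine kinase, fell by 2.06. The count of falls was 48 to 51 when 1 library was left out and 44 without day 5 replicates 4 and 5. WT cells lowered 44 of the 53, with a median of -0.77, and the difference between genotypes was called at 4 genes, including *Mcm6* (-1.003, edgeR adjusted p = 0.00871) and *Uhrf1* (-1.42, edgeR adjusted p = 0.0118).

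Replication-dependent histones, which are made in S phase and lack poly(A) tails but are kept by total RNA libraries, fell alongside. Of 62 tested, 41 fell and 0 rose, with a median of -1.11, and 24 had days that did not overlap. Histone genes held 4.20% ± 1.04 of counts at day 2 and 2.44% ± 0.597 at day 5 (SD, n = 5, exact permutation test, two-sided, p = 0.0318). By class, 13 of 15 H2A genes fell (median -1.39), 15 of 17 H2B genes (-1.79), 8 of 11 H3 genes (-0.96), 4 of 13 H4 genes (-0.53) and 1 of 6 linker H1 genes (-0.28). *Hist3h2ba* held 141, 104, 222, 151 and 140 CPM at day 2 and 24, 32.8, 41.9, 24.7 and 40.0 CPM at day 5 (log2 change -2.21, SE 0.21, edgeR adjusted p = 2.15e-05). *Hist1h2bq* had the most negative change of all genes tested (-4.72), with 2.35, 47.5, 2.88, 37.0 and 2.23 CPM at day 2, where replicates 2 and 4 were far above the others. Histone genes are near-identical copies, and reads may be split between them.

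Of 48 mitosis genes tested, 11 rose and 7 fell, with a median of 0.11, beside 14.4% and 16.6% of all genes tested. *Hmmr*, a spindle protein, held 374, 357, 275, 340 and 392 CPM at day 2 and 674, 708, 668, 635 and 629 CPM at day 5 without overlap (log2 change 0.93, SE 0.12, edgeR adjusted p = 0.000121), and *Prc1*, which bundles the central spindle, rose from 230 ± 28.7 to 404 ± 19.4 CPM. *Aurkb*, the kinase of the chromosome passenger complex, fell from 91.1 ± 12.1 to 46.7 ± 12.8 CPM, also without overlap. *Ccnb2*, a mitotic cyclin, fell by 0.68 with overlapping days. In WT cells 3 of the 48 rose and 7 fell, and the change was more positive in null cells at 4 genes by the test of the difference, among them *Prc1* (0.68, edgeR adjusted p = 0.0111) and *Hmmr* (0.64, edgeR adjusted p = 0.0435). The rises were 6 without any 1 of day 2 replicates 1 and 4 and day 5 replicates 1, 2, 3 and 5, and leaving out day 5 replicate 1 gave 4 falls, while without day 5 replicates 4 and 5 there were 5 rises and 3 falls.

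The promoters of *Mcm6* and *Ccnb2* are shown for the replication and mitosis genes. They are the 250 bases before the RefSeq start on GRCm38.p6, *Mcm6* at chr1:128359706-128359955 and *Ccnb2* at chr9:70421555-70421804, both on the minus strand and printed in the direction of transcription. Capitals in *Mcm6* mark an E2F motif, TTTGGCGC, TTTCCCGC, TTTGCCGC or TTTCGCGC on either strand, and in *Ccnb2* the CHR motif TTTGAA on either strand, known from G2 and mitosis genes.
Mcm6: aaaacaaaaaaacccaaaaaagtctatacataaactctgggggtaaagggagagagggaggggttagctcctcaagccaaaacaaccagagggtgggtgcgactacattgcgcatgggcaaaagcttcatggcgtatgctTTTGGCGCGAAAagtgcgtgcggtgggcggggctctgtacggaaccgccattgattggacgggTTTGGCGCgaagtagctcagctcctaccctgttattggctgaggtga
Ccnb2: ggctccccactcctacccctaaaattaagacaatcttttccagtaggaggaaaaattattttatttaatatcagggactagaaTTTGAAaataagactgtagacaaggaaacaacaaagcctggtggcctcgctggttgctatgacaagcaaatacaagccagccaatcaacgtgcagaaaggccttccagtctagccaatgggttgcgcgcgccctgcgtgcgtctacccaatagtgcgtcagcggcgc
*Mcm6* held 3 matches, of which the first 2 overlap on opposite strands. E2F letters were found in 8 of 44 DNA replication promoters (18.2%) against 3.74% of the 8593 promoters of all protein-coding genes tested. CHR letters were found in 14 of 39 mitosis promoters (35.9%) against 10.2% of all.

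Of 25 G1 cyclin, kinase and cell cycle inhibitor genes tested, 9 rose and 4 fell, and 8 of the 9 rises were among the 20 inhibitors. Without day 2 replicate 4 or without day 5 replicate 4 the falls were 2. *Ccng2*, a cyclin that restrains proliferation, held 63.6, 124, 48.6, 57.4 and 122 CPM at day 2 and 205, 252, 187, 161 and 162 CPM at day 5 without overlap (log2 change 1.21, SE 0.25, edgeR adjusted p = 0.00297). *Cdkn2b*, the p15 inhibitor, rose by 1.15 from a low level of 2.20 ± 0.667 CPM. *Cdk4* fell from 316 ± 16.7 to 159 ± 17.2 CPM (log2 change -0.99, edgeR adjusted p = 4.02e-05) and *Cdk6* by 0.84.

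Of 44 ribosome biogenesis factors, 32 fell and 0 rose, with a median of -0.73. *Nolc1*, a nucleolar chaperone, held 542, 349, 549, 509 and 288 CPM at day 2 and 132, 180, 209, 219 and 232 CPM at day 5 (log2 change -1.20, SE 0.20, edgeR adjusted p = 0.000649). *Dkc1*, the pseudouridine synthase of small nucleolar particles, and *Rrp9*, of the U3 particle, fell by 1.163 and 1.28. None of these 3 genes had overlapping days. In WT cells 37 of the 44 fell, with a median of -0.9965.

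Of 78 cytosolic ribosomal protein genes, 16 rose and 0 fell, with a median of 0.28, and the only change over 0.7 was *Rpl17* (0.73, SE 0.17, edgeR adjusted p = 0.00487), which went from 662 ± 139 to 1097 ± 192 CPM. That count rested on single libraries: it was 6 without day 5 replicate 5, 7 without day 2 replicate 3 or day 5 replicate 1, 9 without day 5 replicate 4, 27 without day 2 replicate 5 and 1 without day 5 replicates 4 and 5. In WT cells 0 of 78 rose and 0 fell, at a median of -0.08, and a difference from the null change was called at 1 gene.

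**Figure D3:**
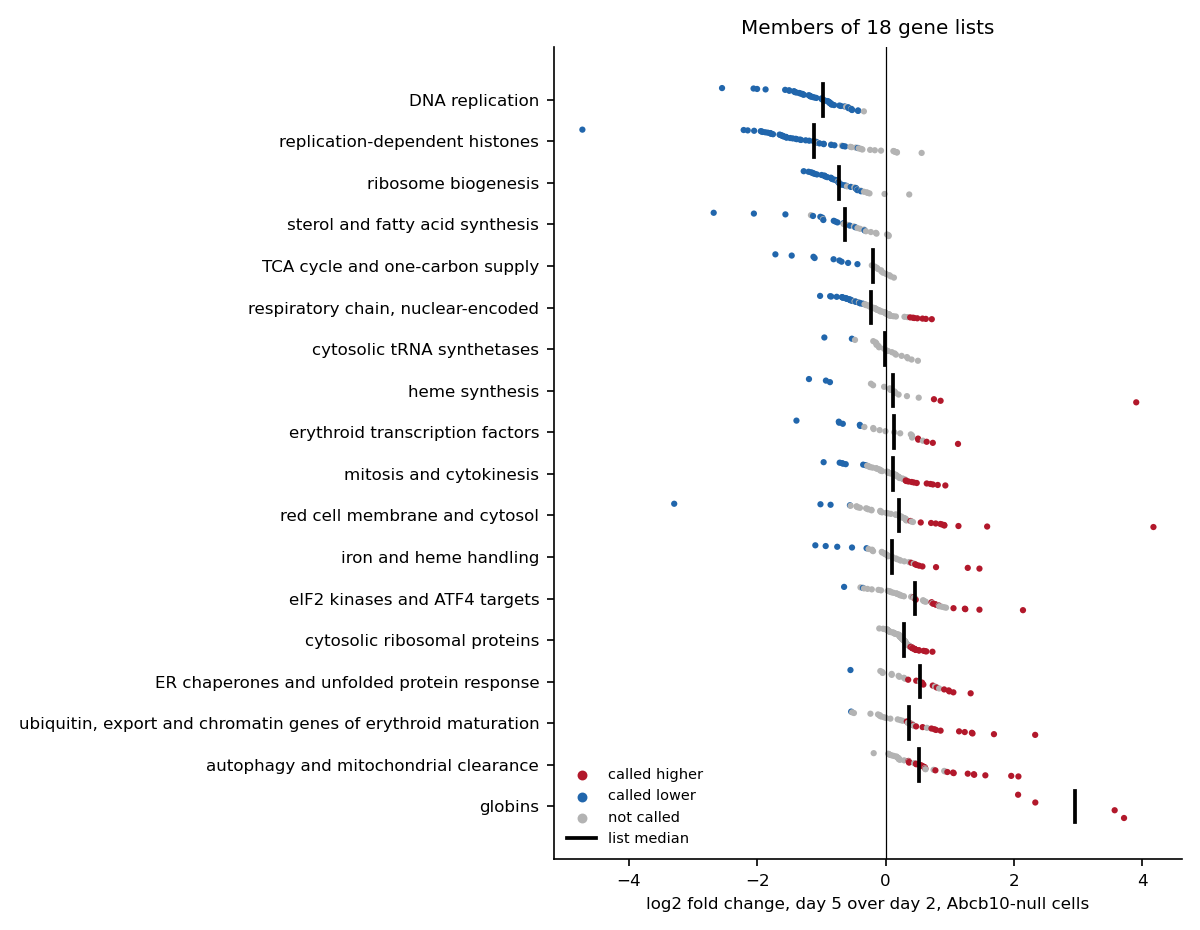
Log2 change from day 2 to day 5 in Abcb10-null cells (horizontal axis) of each tested member of 18 gene lists (points, red where called higher, blue where called lower, grey where not called), with the list median as a black bar. DNA replication (50 of 53 lower, median -0.97) and histones (41 of 62 lower, median -1.11) lay to the left of 0, and autophagy genes (22 of 43 higher, median 0.53) and globins (4 of 4 higher, median 2.95) to the right.

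Genes of the eIF2 kinases and ATF4 moved unevenly, and much of the unevenness lay in the day 2 libraries. *Atf4* held 581, 193, 611, 644 and 390 CPM at day 2 and 585, 488, 547, 622 and 700 CPM at day 5, and *Ddit3*, or CHOP, which ATF4 induces, held 504, 29.3, 497, 515 and 219 CPM and 298, 382, 417, 369 and 518 CPM. Neither passed the test (log2 change 0.29, edgeR adjusted p = 0.417, and 0.18, edgeR adjusted p = 0.814). In both genes day 2 replicate 2 was lowest and day 2 replicate 5 next lowest, and the other 3 day 2 libraries lay within the day 5 range. The mean over the 48 members tested, in log2(CPM + 0.5), was 7.12, 5.39, 6.83, 7.07 and 6.17 at day 2 and 6.95 to 7.25 at day 5.

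Within that list 13 of 48 genes rose and 2 fell, with a median of 0.46. *Atf5*, a relative of ATF4 that responds to mitochondrial stress, held 15.1, 6.49, 12.5, 10.3 and 10.7 CPM at day 2 and 47.2, 43.6, 48.0, 45.3 and 58.9 CPM at day 5, with no overlap (log2 change 2.14, SE 0.19, edgeR adjusted p = 1.76e-05). *Ddit4*, an inhibitor of mTORC1, rose from 120, 51.9, 82.2, 89.4 and 93.1 CPM to 201, 264, 253, 214 and 271 CPM (log2 change 1.46, SE 0.18, edgeR adjusted p = 9.63e-05). Both were called in each fit that left out 1 library. *Chac1*, a glutathione-degrading enzyme induced through ATF4, held 72.0, 6.44, 68.0, 74.8 and 44.0 CPM at day 2 and 80.3, 78.1, 78.1, 111 and 137 CPM at day 5. Its days did not overlap, yet it did not pass the test (log2 change 0.87, edgeR adjusted p = 0.138), and without day 2 replicate 2 it was 0.59 with an adjusted p of 0.0326. The count of rises was 18 without day 2 replicate 1, 6 without day 2 replicate 5, 7 without day 5 replicate 2, 8 without any 1 of day 5 replicates 1, 3 and 4, 5 without day 5 replicate 5 and 5 without day 5 replicates 4 and 5.

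Of the kinases that phosphorylate eIF2, *Eif2ak1* (HRI, the heme-regulated kinase) rose from 22.3, 25.9, 20.2, 17.8 and 24.6 CPM to 53.4, 37.9, 32.6, 41.4 and 25.8 CPM, and its days overlapped slightly (log2 change 0.79, SE 0.18, edgeR adjusted p = 0.00568). *Eif2ak3* (PERK, of the endoplasmic reticulum) rose by 0.44 (edgeR adjusted p = 0.0298), a call kept in 3 of 10 fits with a single library removed. *Eif2ak4* (GCN2, which senses uncharged tRNA) and *Eif2ak2* (PKR, which senses double-stranded RNA) had log2 changes of 0.07 and -0.28 that did not pass. *Eif2s1*, the subunit that these kinases phosphorylate, fell from 363 ± 64.6 to 232 ± 18.6 CPM without overlap (log2 change -0.65, edgeR adjusted p = 0.00249).

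In WT cells more ATF4 targets fell than rose in this interval. Of the 32 targets, 10 rose and 0 fell in null cells (median 0.46), whereas 3 rose and 8 fell in WT cells (median -0.43), and the difference was called at 4, all more positive in null cells. WT day 5 replicate 5 again stood apart, with a list mean of 6.34 against 4.97 to 5.04 in the other 4 WT day 5 libraries, and with 52.2 CPM of *Atf5* against 4.82 to 7.38. With all libraries the difference for *Atf5* was 1.00 (edgeR adjusted p = 0.398) and for *Chac1* 0.98 (edgeR adjusted p = 0.532), and without that library it was 2.37 (edgeR adjusted p = 4.94e-05) and 2.67 (edgeR adjusted p = 0.011).

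**Figure D4:**
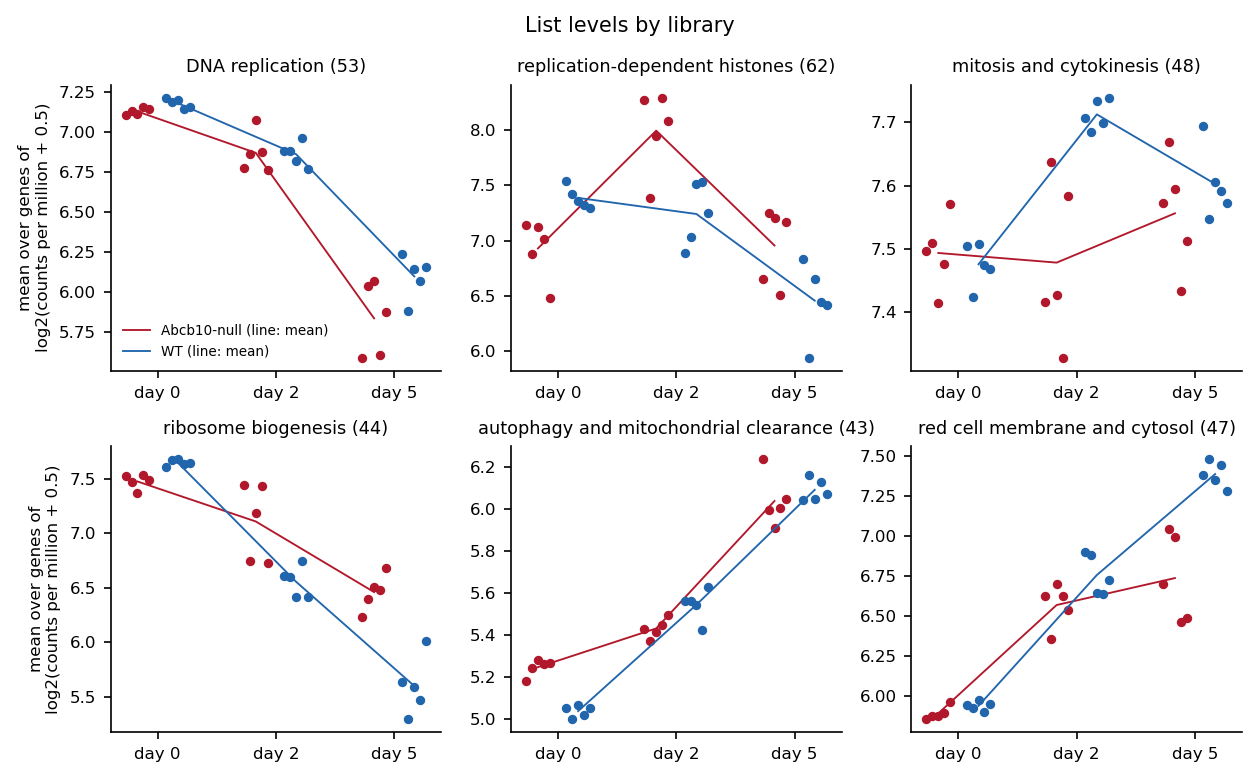
Mean level over the tested members of 6 gene lists, in log2(CPM + 0.5), in each library (points) of Abcb10-null (red) and WT cells (blue) at days 0, 2 and 5, with lines through the group means. In null cells DNA replication fell from 6.76 to 7.07 at day 2 to 5.58 to 6.07 at day 5 and autophagy rose from 5.37 to 5.50 to 5.91 to 6.24, while red cell genes overlapped between days (6.36 to 6.70 and 6.46 to 7.04).

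The amino acid genes that the study followed gave mixed changes. *Slc7a1*, the CAT1 transporter of arginine and lysine, held 136, 85.4, 109, 121 and 76.1 CPM at day 2 and 149, 158, 158, 118 and 148 CPM at day 5 (log2 change 0.47, SE 0.15, edgeR adjusted p = 0.0312). The days overlapped, and the call was kept in 3 of 10 fits with a single library removed. In WT cells it fell by 1.30, and the difference was 1.76 (edgeR adjusted p = 0.00456). *Slc7a5*, a transporter of large neutral amino acids, rose by 0.77 (edgeR adjusted p = 0.0231), or by 0.64 without day 5 replicate 5 (edgeR adjusted p = 0.0644). *Slc7a11*, the cystine transporter, held 331, 34.8, 264, 345 and 67.8 CPM at day 2 and 230, 348, 394, 253 and 341 CPM at day 5 and did not pass (edgeR adjusted p = 0.368). *Slc6a9*, a glycine transporter, rose from 34.4 ± 22.6 to 80.9 ± 10.7 CPM, a call kept in 5 of the 10 such fits, and 30.2% of its exon bases are covered by a gene on the opposite strand. *Slc7a6* (log2 change -0.17) and *Slc7a7* (-0.12), which export arginine in exchange for other amino acids, did not pass the test. Of 28 amino acid transporters tested, 8 rose and 1 fell, and 5 rose without any 1 of day 2 replicate 5 and day 5 replicates 2 and 5.

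Of 37 arginine and proline enzymes, 6 rose and 12 fell, with a median of -0.15. The rises were 3 without day 5 replicate 1 and without day 5 replicate 5, and leaving out day 5 replicates 4 and 5 gave 3 rises and 7 falls. *Smox* and *Sat1*, which break polyamines down, rose by 1.58 (edgeR adjusted p = 0.00025) and 0.68 (edgeR adjusted p = 0.0022), and *Smox* went from 48.0, 21.6, 48.5, 49.3 and 26.2 CPM to 133, 132, 130, 92.6 and 91.2 CPM. *Srm*, spermidine synthase, fell from 199 ± 55.6 to 103 ± 20.5 CPM (log2 change -0.95, edgeR adjusted p = 0.00231). The days of *Smox* and *Sat1* did not overlap, and those of *Srm* did. *Pycr1*, of proline synthesis, rose from 12.9, 4.95, 4.30, 12.2 and 7.05 CPM to 15.2, 14.8, 18.1, 11.2 and 14.04 CPM (log2 change 0.83, SE 0.29, edgeR adjusted p = 0.0409), a call kept in 3 of 10 fits with a single library removed. *Prodh*, which starts proline breakdown, and *Acy1* fell by 0.82 and 0.87. *Ass1*, of arginine synthesis, fell from the low level of 1.57 ± 0.713 to 0.592 ± 0.291 CPM (edgeR adjusted p = 0.0286), a call kept in 4 of 10 fits with a single library removed (edgeR adjusted p = 0.0692 without day 2 replicate 2). *Asl* (0.04), *Aldh18a1* (0.13) and *Padi3* (-0.05) did not pass the test. The aminotransferase *Got1* (log2 change 0.40), the dehydrogenase *Aldh1b1* (-0.58), *Padi1* (0.83, at 0.837 ± 0.26 CPM on day 2) and *Naprt* (-0.26) did not pass either, and *Padi2* and *Padi4* had too few counts to be tested.

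Of the tRNA synthetases few passed the test. Among 20 cytosolic genes 0 rose and 2 fell, *Hars* from 361 ± 32.8 to 186 ± 19.3 CPM (log2 change -0.95, edgeR adjusted p = 6.13e-05) and *Kars* by 0.52. *Rars*, for arginine, held 924, 245, 526, 817 and 386 CPM at day 2 and 567, 565, 624, 635 and 705 CPM at day 5 and did not pass (edgeR adjusted p = 0.815). The wide spread of *Rars* at day 2 had its lowest values in replicates 2 and 5, as for *Ddit3*.

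Of 25 genes of endoplasmic reticulum chaperones and the unfolded protein response, 12 rose and 1 fell, with a median of 0.54, against 7 and 3 in WT cells with a median of 0.04. *Hspa5*, the chaperone BiP, held 1299, 1695, 1777, 1420.0 and 1266 CPM at day 2 and 3227, 2477, 2843, 3150.0 and 3808 CPM at day 5, with no overlap (log2 change 1.06, SE 0.15, edgeR adjusted p = 0.000269). *Dnajb9*, its cofactor, rose from 10.2 ± 2.03 to 25.6 ± 3.74 CPM, and *Ern1*, the sensor IRE1, from 5.36 ± 0.78 to 10.7 ± 1.51 CPM. The change was more positive in null than in WT cells at 6 of the 25 genes by the test of the difference, among them *Hspa5* (1.13, edgeR adjusted p = 0.0153). The count of rises was 11 to 17 when 1 library was left out and 10 without day 5 replicates 4 and 5, where 0 fell.

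The promoters of *Pycr1* and *Chac1* are shown for the ATF4 list, because one was called and the other was not. They are the 250 bases before the RefSeq start on GRCm38.p6, *Pycr1* at chr11:120643749-120643998 on the minus strand, printed in the direction of transcription, and *Chac1* at chr2:119350992-119351241 on the plus strand. Capitals mark TGATGNAA on either strand, the composite C/EBP-ATF element to which ATF4 dimers bind.
Pycr1: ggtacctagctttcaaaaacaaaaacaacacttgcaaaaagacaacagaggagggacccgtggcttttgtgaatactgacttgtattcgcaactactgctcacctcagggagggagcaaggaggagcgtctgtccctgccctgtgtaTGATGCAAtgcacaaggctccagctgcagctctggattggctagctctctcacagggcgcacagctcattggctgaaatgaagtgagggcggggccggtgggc
Chac1: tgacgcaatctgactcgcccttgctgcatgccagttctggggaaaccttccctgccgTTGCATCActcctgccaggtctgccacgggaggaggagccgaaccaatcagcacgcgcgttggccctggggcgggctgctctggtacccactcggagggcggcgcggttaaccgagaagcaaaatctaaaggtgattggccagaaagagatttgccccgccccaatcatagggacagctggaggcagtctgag
The match began 103 bases before the start in *Pycr1* and 193 bases before it in *Chac1*. These letters were found in 9 of 41 promoters of the list (22%) against 1.92% of the 8593 promoters of all protein-coding genes tested, and in 1 of the 11 promoters of members that rose (9.09%).

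Of 79 nuclear-encoded subunits of the respiratory chain, 25 fell and 7 rose (4 without day 5 replicates 4 and 5), with a median of -0.22, against 5 and 2 in WT cells at a median of -0.08, and a difference between genotypes was called at 0 of them. *Cox5a*, of complex IV, held 103, 133, 115, 125 and 112 CPM at day 2 and 64.0, 54.4, 62.4, 44.2 and 64.9 CPM at day 5 without overlap (log2 change -1.02, SE 0.12, edgeR adjusted p = 9.25e-05). *Uqcr11*, of complex III, and *Ndufs6*, of complex I, fell by 0.86 and 0.85, while *Atpif1*, the inhibitor of the ATP synthase, rose from 279 ± 44.5 to 459.8 ± 42.6 CPM, with 33.7% of its exon bases covered by a gene on the opposite strand. Of the 7 mitochondria-encoded transcripts tested, 4 fell and 0 rose, and 2 fell without day 2 replicate 5 or without day 5 replicate 1. *mt-Nd1* held 351, 612, 742, 484 and 566 CPM at day 2 and 197, 167, 156, 421 and 251 CPM at day 5, and day 5 replicate 4 overlapped the day 2 range (log2 change -1.21, SE 0.27, edgeR adjusted p = 0.0041). The share of all counts from the mitochondrial genome, with its ribosomal and transfer RNAs, was 1.29% ± 0.189 at day 2 and 1.48% ± 0.222 at day 5 and did not differ by the exact permutation test (two-sided, p = 0.23).

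Of 20 genes of the TCA cycle and one-carbon supply, 9 fell and 0 rose, with a median of -0.19. *Mthfd1*, which moves one-carbon units on folate, held 240, 237, 249, 251 and 188 CPM at day 2 and 53.2, 72.1, 79.4, 65.6 and 84.4 CPM at day 5 (log2 change -1.72, SE 0.14, edgeR adjusted p = 9e-06). *Shmt1*, which takes the unit from serine, and *Idh3a*, of the TCA cycle, fell by 1.46 and 1.12, and no gene of these 3 had overlapping days. Glycolysis had 4 rises and 4 falls among 30 genes, with 2 rises without any 1 of day 2 replicates 1, 3 and 4 or day 5 replicates 1, 2 and 4. The steepest fall there was *Pklr*, the red cell and liver pyruvate kinase, from 46.6, 91.8, 62.7, 57.7 and 80.2 CPM to 11.9, 18.99, 14.3, 9.34 and 7.02 CPM (log2 change -2.46, SE 0.25, edgeR adjusted p = 3.38e-05), and *Slc2a3*, a glucose transporter, rose by 1.09.

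Of 30 genes of sterol and fatty acid synthesis, 15 fell and 0 rose, with a median of -0.63. *Scd2*, a fatty acid desaturase, held 297, 1787, 553, 324 and 923 CPM at day 2 and 109, 196, 151, 91.6 and 63.6 CPM at day 5. The days did not overlap despite the wide day 2 spread, in which replicates 2 and 5 were highest (log2 change -2.68, SE 0.47, edgeR adjusted p = 0.000943). *Fdps*, of the isoprenoid branch, of which 26.7% of exon bases lie under another gene on the same strand, fell from 55.1 ± 10.3 to 18.7 ± 2.72 CPM.

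Glutathione and antioxidant genes gave 5 rises and 9 falls among 31, and the rises were 3 without any 1 of day 2 replicate 4 and day 5 replicates 1 and 2, and 2 without day 5 replicate 4. *Gpx1*, the erythroid glutathione peroxidase, held 1169, 501, 850, 1078 and 770 CPM at day 2 and 1465, 1523, 1571, 1563 and 1664 CPM at day 5, above every day 2 library (log2 change 0.84, SE 0.19, edgeR adjusted p = 0.00422). *Nqo1*, a quinone reductase and common marker of NRF2 activity, fell from 17.6 ± 2.35 to 9.39 ± 3.18 CPM without overlap, whereas in WT cells it rose, and the difference was -1.70 (edgeR adjusted p = 0.00178). *Gstt1*, a glutathione transferase, rose by 0.60 in null cells and by 2.51 in WT cells, a difference of -1.91 (edgeR adjusted p = 0.00456). Without day 5 replicate 2 the null change was 0.52 and did not pass the test.

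Of 43 autophagy and mitochondrial clearance genes tested, 22 rose and 0 fell, with a median of 0.53, against 24 and 1 in WT cells with a median of 0.48. *Trp53inp1*, a p53 target that joins autophagosomes, held 41.6, 30.5, 47.4, 34.2 and 46.9 CPM at day 2 and 207, 121, 117, 164 and 168 CPM at day 5 (log2 change 1.96, SE 0.18, edgeR adjusted p = 1.97e-05). *Map1lc3a*, which coats the autophagosome membrane, rose from 11.5 ± 3.45 to 33.6 ± 6.28 CPM. Neither gene had overlapping days. The count of rises was 15 to 26 when 1 library was left out and 15 without day 5 replicates 4 and 5.

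Genes of ubiquitin transfer, nuclear export and chromatin in erythroid maturation gave 16 rises and 1 fall among 34, with 3 falls without day 2 replicate 2 or day 5 replicate 3 and 2 without day 2 replicate 5. *Ube2h*, a ubiquitin-conjugating enzyme of late erythroid cells, held 23.5, 14.8, 14.9, 23.5 and 22.8 CPM at day 2 and 61.1, 52.9, 50.6, 49.6 and 39.8 CPM at day 5 (log2 change 1.35, SE 0.17, edgeR adjusted p = 0.000106). *Hdac5*, a histone deacetylase, rose from 13.8 ± 4.20 to 44.4 ± 15.2 CPM, more than in WT cells (difference 1.01, edgeR adjusted p = 0.0433). Of 22 genes of the Bcl2 family and caspases, 4 rose and 1 fell, and the falls were 2 without day 2 replicate 1 or 2 and 0 without day 2 replicate 3 or 4 or any 1 of the day 5 libraries. *Bcl2* itself rose from 89.1 ± 25.9 to 164 ± 29.5 CPM and the death effector *Bcl2l11* from 12.7 ± 3.53 to 25.4 ± 2.93 CPM. The days did not overlap for either gene.

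Among 9 genes of interferon signalling 3 rose and 0 fell, namely *Ifnar1* (0.62, edgeR adjusted p = 0.0004), *Ifnar2* (0.75, edgeR adjusted p = 0.00359) and *Jak1* (0.40, edgeR adjusted p = 0.032), the last with overlapping days and a call in 4 of 10 fits with a single library removed. Among 33 effectors 0 rose and 7 fell, with a median of -0.21, beside 14.4% and 16.6% of all genes tested. The difference between signalling genes and effectors was not tested. Over both together the 7 falls became 3 without day 5 replicates 4 and 5. *Ifit2*, which binds foreign RNA, held 16.6, 13.9, 21.3, 18.9 and 17.9 CPM at day 2 and 2.21, 4.42, 4.36, 0.831 and 2.08 CPM at day 5 (log2 change -2.64, SE 0.32, edgeR adjusted p = 9.57e-05), and *Bst2*, which tethers budding viruses, and *Oasl1* fell by 0.98 and 1.18. In WT cells 17 of 32 effectors rose and 3 fell, with a median of 0.47, and the difference was called at 6 of 33 genes, all more negative in null cells. ISRE letters, AAANNGAAA on either strand, were found in 15 of 31 promoters of the list (48.4%) against 6.47% of all 8593.

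Of 24 genes of erythropoietin, Kit and STAT signalling, 3 rose and 5 fell, beside 14.4% and 16.6% of all genes tested. Without any 1 of day 2 replicate 4 and the day 5 libraries 3 fell, and without day 2 replicate 5 there were 5 rises. *Socs3*, a feedback inhibitor of cytokine receptors, rose from 3.61 ± 0.912 to 9.34 ± 3.01 CPM without overlap (log2 change 1.37, edgeR adjusted p = 0.00144). *Osm*, a cytokine gene under STAT5, held 87.5, 17.4, 117, 98.8 and 46.9 CPM at day 2 and 17.1, 27.02, 23.9, 15.7 and 21.2 CPM at day 5 (log2 change -1.80, SE 0.37, edgeR adjusted p = 0.0028), and its days overlapped only through day 2 replicate 2. *Erfe*, the erythroid hormone that lowers hepcidin, fell by 1.14 in null cells, with overlapping days, while the WT change of 0.70 did not pass the test and the difference was -1.84 (edgeR adjusted p = 0.0358).

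The protein-coding genes with the largest changes at 5 CPM or more that also did not overlap came from varied functions. Besides *Slc4a1*, *Alas2* and the globins, the largest rises included *Asic4*, an ion channel subunit, from 3.16, 1.29, 4.93, 4.02 and 1.76 CPM to 31.6, 26.3, 27.8, 29.6 and 32.8 CPM (log2 change 3.29, SE 0.29, edgeR adjusted p = 1.76e-05). *Cox6a2*, the muscle form of a complex IV subunit, rose from 3.89 ± 3.67 to 23.95 ± 7.01 CPM, and *Tg*, thyroglobulin, from 3.44 ± 0.897 to 19.4 ± 3.16 CPM. *Ypel3*, a growth suppressor of the p53 response, rose from 4.79 ± 3.74 to 24.3 ± 12.4 CPM. *Col20a1* (log2 change 3.104), *Vmn2r96* (2.45), *Lrrc39* (2.35), *Cdhr4* (2.33) and *Hsd3b1* (2.23) completed the rises, the mean of each being under 15 CPM at day 5. *Vmn2r96* is a vomeronasal receptor gene, a family that day 5 replicates 4 and 5 counted more than the other null libraries, and 47.3% of the exon bases of *Cdhr4* are shared with another gene on the same strand. The largest falls included *Car1*, *Scd2* and *Sept4*, a septin, which went from 9.44, 15.8, 9.07, 12.1 and 20.3 CPM to 0.758, 2.49, 1.53, 1.66 and 1.23 CPM (log2 change -3.12, SE 0.33, edgeR adjusted p = 3.65e-05). *Fam198b* (log2 change -3.63), *Ifi27l2a* (-2.73), *3110082I17Rik* (-2.71), *Mns1* (-2.67), *Gml2* (-2.66) and *Phf11d* (-2.18) were also among them, and 53.0% of the exon bases of *Mns1* lie under a gene on the opposite strand.

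Over the 12341 genes tested in both genotypes Pearson's r between the log2 changes was 0.574, a description across genes, which are not independent, from 2 comparisons that share no library. Of 3923 genes called in null cells and tested in WT cells, 2060 were called in the same direction in WT cells, which is 52.5% of the null calls and 48.1% of the 4285 WT calls, and 52 (1.33%) were called in the opposite direction. The difference between genotypes itself was called at 333 of the 3923 (8.49%). Among these, 109 rose and 186 fell more in null cells, while 29 rises and 9 falls were smaller than or opposite to the WT change. All were selected by a call in null cells, which favours larger null changes and leaves out genes called only in WT cells. The split therefore does not show that changes were larger in null than in WT cells.

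Genes with the most negative and most positive differences were of several kinds. *S100a4*, a calcium-binding protein that shares 51.7% of its exon bases with another gene on the same strand, held 4.96, 10.6, 12.6, 6.14 and 9.38 CPM at day 2 and 1.52, 0.685, 1.24, 1.14 and 0.463 CPM at day 5 in null cells, while its WT mean went from 8.33 to 12.4 CPM, and the difference was the most negative at -3.68 (edgeR adjusted p = 6.63e-05). *Arrdc3*, an arrestin-like adaptor, and *Gpcpd1*, a phosphodiesterase of glycerophosphocholine, did not change detectably in null cells (log2 changes -0.20 and 0.20) and rose in WT cells by 2.11 and 2.42, with differences of -2.31 and -2.22. *Slfn14*, a ribosome-associated endonuclease of blood cells, went from 7.93 ± 4.83 to 12.8 ± 1.37 CPM in null cells without passing the test and rose by 3.13 in WT cells, a difference of -2.44, while *Fam198b* and *Mns1* fell more in null cells, with differences of -2.54 and -2.44. At the other end *Setd1b*, a histone methyltransferase, rose by 1.09 in null cells and fell by 1.48 in WT cells (difference 2.56, edgeR adjusted p = 0.0117), although its null change of 0.92 without day 5 replicate 1 did not pass the test. *Rai1*, a nuclear regulator, rose by 1.14 and fell by 1.17 (difference 2.30), and *Hmox1* rose by 1.28 and fell by 0.91 (difference 2.19, edgeR adjusted p = 0.00915). *C77080* (2.46), *Pitpnm2* (2.36), *Kif21b* (2.28), *Kcp* (2.19) and *Ptpn23* (2.15) had differences of like size, and of these *C77080*, *Kif21b* and *Ptpn23* rose in null cells.

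**Figure D5:**
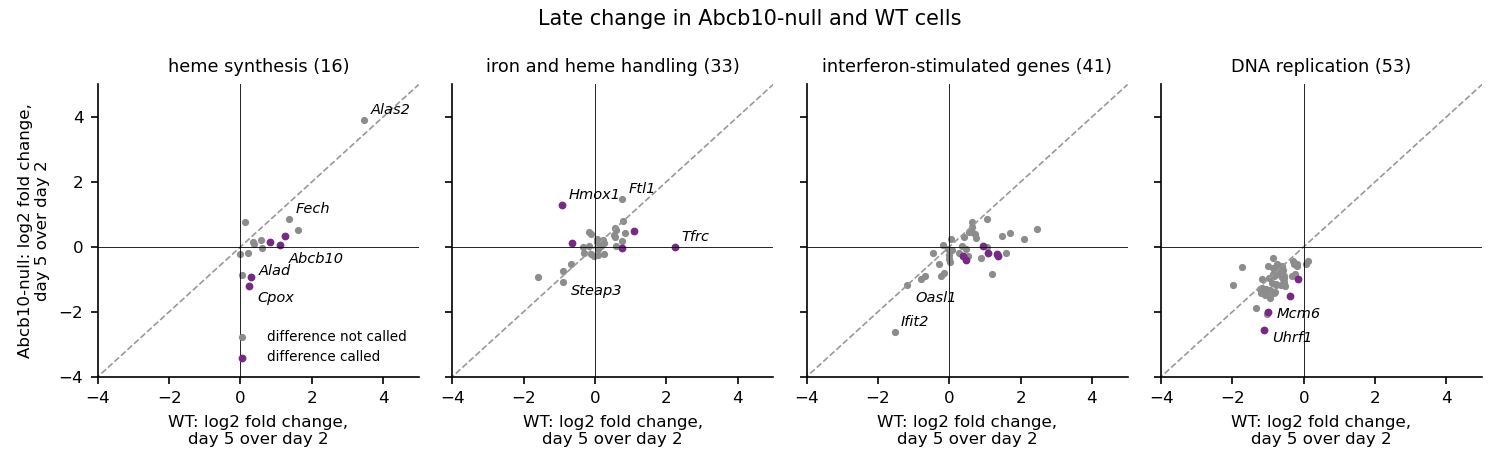
Log2 change from day 2 to day 5 in Abcb10-null cells (vertical axis) against that in WT cells (horizontal axis) for the tested members of 4 gene lists, with genes whose difference was called in purple, the others in grey and equal change as the dashed line. *Tfrc* (2.25 in WT and -0.01 in null cells), *Cpox*, *Alad* and *Uhrf1* lay below the line, *Hmox1* (-0.91 and 1.28) above it, and the interferon-stimulated genes spread to the right of it.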

How the data were processed

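Per the study's methods and the submitters' processing notes, RNA was cleared of ribosomal and globin transcripts before stranded library preparation, and the authors ran cutadapt, STAR 2.6.1b against GRCm38, and featureCounts 1.6.3 to obtain counts per gene. They deposited raw counts, and the strand setting of the counting is not given in the sources used here. Globin levels are those left after depletion. Of 54532 genes, 9219 had no count and 37, with 0.0116% of counts, were not in the GENCODE M21 annotation used for names and positions.

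Counts of the 10 null libraries of days 2 and 5 were scaled by TMM, filtered by filterByExpr and tested with edgeR 4.0.16 (quasi-likelihood, two-sided, Benjamini-Hochberg over all genes tested, adjusted p under 0.05) in R 4.3.3. The difference between genotypes was an interaction term over the 20 WT and null libraries of both days. CPM were computed on sizes scaled over all 30 libraries, whose totals at days 2 and 5 in null cells ran from 9906783 to 19616273, and a group mean carries the SD of 5 libraries. Levels of a gene at or under 3 counts were taken as the floor. DESeq2 1.42.0 and other settings were alternatives. A chi-square of counts per degree of freedom was computed for each pair of replicates, without a p-value. Its lowest value was 6.23, for WT day 5 replicates 1 and 3, so no replicate was a copy of another. In null cells at day 2 it ran from 10.1 (replicates 1 and 4) to 124 (replicates 2 and 4). It does not show how independent the replicates were. On counts simulated for the comparison of days in null cells, 66 of 97 genes changed by 1 and 87 of 96 changed by 2 (log2) were recovered, with 7 of 12391 unchanged genes called. For the difference between genotypes, 35 of 98 and 68 of 96 were recovered, with 10 of 13511 called. Each simulation changed 200 genes before filtering and held no outlying library. In the data 31.0% of genes were called between days and 4.71% for the difference, so these rates need not hold there.

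The comparison, gene lists and promoter motifs were chosen with earlier results of these data known. Named genes were those the study names, up to 3 called rises and 3 called falls of each list (mean of at least 1 CPM), the 15 largest called rises and falls of protein-coding genes (at least 5 CPM, days not overlapping), and the 8 most positive and 8 most negative called differences between genotypes (at least 5 CPM). Some items the rule selects are not reported here.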

Additional observations from a re-analysis of the deposited data

Results flagged for a closer look

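In 13 of 288 groups of 5 libraries, formed by each gene named here in Abcb10-null cells of each day, 1 library stood away from the other 4 by Dixon's test, where chance gives about 1 in 20. At day 2 these were *Abcb10* (312 CPM), *Slc25a37* (60.6 CPM) and *Bcl2l11* (18.8 CPM) in replicate 3, *Cdk6* (164 CPM), *Pitpnm2* (7.18 CPM) and *Padi4* (0.149 CPM) in replicate 2, and *Hbb-bt* (12.4 CPM) and *Mthfd1* (188 CPM) in replicate 5. At day 5 they were *Padi4* (1.14 CPM), *Slc7a1* (118 CPM) and *Tg* (24.9 CPM) in replicate 4, and *Slc7a5* (111 CPM) and *Atf5* (58.9 CPM) in replicate 5.

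The change from day 2 to day 5 differed between genotypes, by edgeR's test of the difference at an adjusted p under 0.05, for the following genes, given as the log2 change in null cells minus that in WT cells. Among genes of heme and iron supply the difference was negative for *Abcb10* (-1.05), *Alad* (-1.22), *Urod* (-0.68), *Cpox* (-1.43), *Tfrc* (-2.26) and *Erfe* (-1.84), and positive for the heme-degrading *Hmox1* (2.19). Among regulators of transcription and translation it was negative for *Gata1* (-0.91), *Ikzf1* (-0.75), *Mxi1* (-0.69) and *Eif2ak2* (-0.67), and positive for *Hdac5* (1.01). It was positive for *Slc7a1* (1.76), *Pycr1* (1.83) and the chaperone gene *Hspa5* (1.13). Among cell cycle genes it was negative for *Mcm6* (-1.003) and *Uhrf1* (-1.42) and positive for *Hmmr* (0.64) and *Prc1* (0.68). Of the other genes it was negative for *Gstt1* (-1.91), *Nqo1* (-1.70), *Scd2* (-2.21), *Fam198b* (-2.54), *Ifi27l2a* (-2.44), *Mns1* (-2.44), *S100a4* (-3.68), *Slfn14* (-2.44), *Arrdc3* (-2.31) and *Gpcpd1* (-2.22). It was positive for *Setd1b* (2.56), *C77080* (2.46), *Pitpnm2* (2.36), *Rai1* (2.30), *Kif21b* (2.28), *Kcp* (2.19) and *Ptpn23* (2.15).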

How the results depend on the processing

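The counts of genes called at day 5 against day 2 in null cells, 1844 higher and 2124 lower, ran from 1363 to 2111 and from 1709 to 2334 when 1 library was left out. With a log2 limit of 0.58 added they were 1126 and 1476. Without day 5 replicates 4 and 5, a setting chosen after seeing the data, they were 1130 and 1400, from 8 libraries, and without day 2 replicate 2 and day 5 replicate 4, chosen likewise, 1691 and 2155. The counts called for the difference between genotypes, 247 higher and 410 lower in null cells, were 491 and 744 with DESeq2, 727 and 978 with all 30 libraries in 1 fit, and 424 and 329 with every gene of at least 1 count. They ran from 102 (without WT day 5 replicate 4) to 765 (without WT day 5 replicate 5) and from 171 (without null day 2 replicate 3) to 587 (without WT day 5 replicate 5), and the cause of this range was not tested. Of the 16 genes named for the largest differences, 16 kept the call for the difference without WT day 5 replicate 5. In the other fits that left out 1 library, 13 (without null day 2 replicate 3) to 15 kept it. Of the 115 named genes called between days, none reversed under any of these settings, and 10 lost the call in at least 1 fit that left out 1 library. Without day 5 replicates 4 and 5, 15 lost it: *Ass1*, *Slc7a1*, *Slc7a5*, *Pycr1*, *Eif2ak3*, *Slc25a38*, *Slc6a9*, *Rpl17*, *Ccnb2*, *Cdkn2b*, *Jak1*, *Erfe*, *Setd1b*, *Kif21b* and *Ptpn23*.

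Replicates of the same number in null cells of days 2 and 5 did not deviate together (correlations of -0.146, -0.199, 0.104, -0.229 and -0.104). Correlations also ran up to 0.258 between different numbers (day 2 replicate 2 and day 5 replicate 4). These values cannot decide whether libraries of the same number came from the same induction, which remains unknown. With the replicate number as a block, 1378 genes were called higher and 1529 lower between days, and 313 and 372 for the difference between genotypes, and 109 of the 115 named genes kept their call.

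Uncalled log2 changes near 0 changed sign. Over the fits that left out 1 library, and the pair of libraries chosen after seeing the data, they ran for *Abcb10* from -0.00498 to 0.27, *Uros* from -0.00734 to 0.27, *Asl* from -0.0357 to 0.0866, *Padi3* from -0.10 to 0.0104, *Slc7a7* from -0.31 to 0.0374, *Aldh18a1* from -0.0729 to 0.30, *Ddit3* from -0.12 to 0.35, *Rars* from -0.12 to 0.33, *Eif2ak4* from -0.0195 to 0.13, *Arrdc3* from -0.40 to 0.17, *Tfrc* from -0.18 to 0.11 and *Gpcpd1* from -0.0326 to 0.37. With every gene of at least 1 count *Asl* was at -0.0079, and without day 5 replicates 4 and 5 *Padi3* was at 0.0775, *Slc7a7* at 0.0704 and *Tfrc* at 0.18. Medians of the gene lists changed sign in 16 of 624 values over 33 lists, and in 0 of 225 for the 12 lists with an absolute median over 0.3.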
